A study of Mus musculus with 44 samples.

Results

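The 52 genes described here act in the cell cycle and in DNA replication. They were taken from a set list of symbols, and each symbol matched a row of the count table of 55416 genes. Of them, 22 work in S phase, 5 control the step from G1 to S, 21 act in mitosis, and 4 are D cyclins or inhibitors of cyclin-dependent kinases. All 52 passed the filter on low counts, as did 21873 genes in all. They were measured in 44 mRNA-seq libraries of CD4 T cells from C57BL/6NTac mice, labelled miR-150 WT (wild type), miR-150 KO (knock-out) or miR-150 KI (knock-in). The labels used here give no age of the mice and do not say how the knock-in allele was made or which cells it acts in. Naive CD4 T cells sorted from the spleen were plated at 150000 cells per well and kept for 3 days with anti-CD3 and anti-CD28. Th0 cultures had nothing further, Th1 cultures also had IL-12 and anti-IL-4, and Treg cultures also had TGF-b1 and anti-IFN-g. Each culture and genotype had 5 libraries, numbered 1 to 5, except Th0 KI, which had 4 and no number 2. The labels do not say whether these came from separate mice, so p-values measure only the spread between libraries.

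A cell that enters the cycle makes D cyclins, which with their kinases free E2F factors from the retinoblastoma proteins. E2F factors drive the genes of replication, among them the MCM helicase, the polymerases with their clamp Pcna, and the enzymes that make nucleotides. The genes of mitosis come on later, largely through CHR elements and CCAAT boxes in their promoters, and Foxm1 is one of the factors that act there. The inhibitors p27 (Cdkn1b) and p21 (Cdkn1a) hold the kinases back. T cells stimulated through CD3 and CD28 divide fast in culture, and TGF-beta is known to restrain T cell division.

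The promoters of the S-phase and of the mitotic genes held E2F sites and CHR elements in different shares, while CCAAT boxes were frequent in both. Promoters of 5 genes are shown because the results below turn on these genes or because they carry clear examples. Of the 52 genes, 40 matched a table of RefSeq promoters on build GRCm38.p6, in 47 windows of 250 bases before and 50 after a start site. An E2F site (TTTCCCGC, TTTGGCGC or TTTNGCGC on either strand, the last including the one before it) stood in 9 of 23 (39.1%, Wilson 95% interval 22.2 to 59.2) S-phase windows. It stood in 1 of 15 (6.67%, Wilson 95% interval 1.19 to 29.8) mitotic windows and in 2.39% of all 32851 windows. The intervals of the S-phase and mitotic windows overlap. A CHR element (TTTGAA or TTCGAA on either strand) stood in 12 of 15 (80%, Wilson 95% interval 54.8 to 93) mitotic windows, in 4 of 23 (17.4%, Wilson 95% interval 6.98 to 37.1) S-phase windows and in 19.2% of all. At least 1 CCAAT box (CCAAT on either strand) stood in 93.3% of mitotic windows, 65.2% of S-phase windows and 37.4% of all. At least 2 stood in 66.7% (Wilson 95% interval 41.7 to 84.8) of mitotic windows and 39.1% (22.2 to 59.2) of S-phase windows, intervals that overlap. Of all windows, 11.7% held at least 2. In the bases before the start alone, a CHR element stood in 46.7% (Wilson 95% interval 24.8 to 69.9) of mitotic windows. It stood there in 17.4% (6.98 to 37.1) of S-phase windows, an interval that overlaps the mitotic one, and in 17.1% of all. Windows of a gene with several start sites can overlap, so the intervals cover counting error only. The 250 bases before the start are printed 5′ to 3′ on the strand of the gene, with the motifs in capitals. Mcm6 (chr1:128359706-128359955, minus strand) is a subunit of the helicase, and Cdc6 (chr11:98907901-98908150, plus strand) loads that helicase. Ccnb2 (chr9:70421555-70421804, minus strand) is cyclin B2, Mki67 (chr7:135716380-135716629, minus strand) is the Ki-67 antigen, and Cdk1 (chr10:69352913-69353162, minus strand) is the kinase that drives mitosis.
Mcm6: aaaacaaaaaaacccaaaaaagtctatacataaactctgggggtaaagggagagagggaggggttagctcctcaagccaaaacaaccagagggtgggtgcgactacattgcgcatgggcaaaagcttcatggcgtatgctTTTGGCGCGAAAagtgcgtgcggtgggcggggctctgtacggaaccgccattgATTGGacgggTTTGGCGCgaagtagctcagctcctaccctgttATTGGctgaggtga
Cdc6: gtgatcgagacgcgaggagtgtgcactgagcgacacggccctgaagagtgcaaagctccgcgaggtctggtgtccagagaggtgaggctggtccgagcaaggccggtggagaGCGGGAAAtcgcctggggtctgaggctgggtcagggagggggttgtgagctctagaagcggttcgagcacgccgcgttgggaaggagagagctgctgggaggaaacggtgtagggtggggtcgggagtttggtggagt
Ccnb2: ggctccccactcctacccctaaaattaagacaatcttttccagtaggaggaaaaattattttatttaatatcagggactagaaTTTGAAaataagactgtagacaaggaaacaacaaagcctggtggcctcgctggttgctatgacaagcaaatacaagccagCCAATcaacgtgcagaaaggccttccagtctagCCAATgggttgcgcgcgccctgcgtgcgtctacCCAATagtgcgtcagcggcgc
Mki67: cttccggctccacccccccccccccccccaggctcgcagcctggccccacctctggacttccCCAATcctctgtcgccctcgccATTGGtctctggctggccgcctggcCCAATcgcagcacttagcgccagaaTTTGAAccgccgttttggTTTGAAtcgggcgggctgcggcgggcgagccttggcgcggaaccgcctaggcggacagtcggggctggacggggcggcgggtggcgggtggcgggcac
Cdk1: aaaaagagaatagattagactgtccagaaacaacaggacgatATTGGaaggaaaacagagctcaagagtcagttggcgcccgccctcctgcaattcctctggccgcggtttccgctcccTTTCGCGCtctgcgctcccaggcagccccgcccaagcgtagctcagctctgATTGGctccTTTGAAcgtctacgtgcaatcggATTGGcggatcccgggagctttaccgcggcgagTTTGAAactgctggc
In Mcm6 the capitals mark 3 E2F sites, the nearest of them starting 47 bases before the start site and the others overlapping each other, and CCAAT boxes at 57 and 14. In Cdc6 they mark 1 E2F site. In Ccnb2 they mark a CHR element at 167 and CCAAT boxes at 87, 54 and 21. Another CHR element of Ccnb2 lies after the start, outside the printed bases. In Mki67 they mark 3 CCAAT boxes and 2 CHR elements, the nearest of these at 98. In Cdk1 they mark 1 E2F site, CHR elements at 71 and 15, and CCAAT boxes at 208, 80 and 48. Start sites here are those of RefSeq. In the GENCODE annotation Cdc6 starts at 98907801, so its printed bases and E2F site lie inside that gene. Cdk1 starts there at 69352938, so its CHR element at 15 lies inside the gene as well. All matches describe letters, and binding was not measured.

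Library totals ran from 60815821 to 137415965 counts. Levels are in CPM, counts relative to the library total and scaled with TMM factors, which correct for the makeup of each library. Mir150 had 6 counts over all WT, 0 over all KO and 7 over all KI libraries, too few to check the labels. Foxp3, the factor that defines Treg cells, stood between 0.362 and 4.35 CPM in Th0 and Th1 libraries. In Treg cultures it was 47.7 CPM in WT 4, 61.97 in KI 3, 77.4 in KO 2 and 159 in WT 3, against 376 to 596 in the other 11. WT 4 and KI 3 also had the highest Cd8a of their group in every culture (107.4 to 443 CPM), as KO 2 had in Th0 and Treg. The summed level of 8 B cell markers was highest in KI 3 within each culture (1276 to 1980 CPM) and went from 54.7 to 1402 CPM in the other libraries. The summed level of myeloid and dendritic cell markers went from 24.9 to 125.7 CPM and was highest in Th0 KI 1. Its median was 102.6 CPM in Th0 KI and 39.2 in Th0 WT. The summed level of 6 erythroid markers was at most 8.67 CPM. The part of such cells in the results was not tested, and counts without WT 4, KO 2 and KI 3 are given where they differ. In bulk RNA, fewer cells of a type and less RNA per cell cannot be told apart.

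Per length of the exons, the S-phase and mitotic genes stood at like levels in Th0 WT cells, with medians of 42.7 and 40.6 RPKM (counts per kilobase of exon, scaled as CPM). Pcna was highest at 225 ± 30.03 RPKM (SD, n = 5), followed by Rrm2, a subunit of ribonucleotide reductase, at 154 ± 14.1. Among the mitotic genes Top2a, which untangles chromosomes, led at 138.9 ± 23.2 RPKM and Mki67 came next at 122.6 ± 11.8. The phosphatase gene Cdc25c was lowest at 5.20 ± 0.464 RPKM, followed by Cdkn1b at 7.67 ± 1.29 and E2f1 at 9.96 ± 1.45. Ccnd2 stood at 105.7 ± 13.2 RPKM and Ccnd3 at 15.3 ± 2.70.

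Treg cultures differed from Th0 cultures most in the inhibitors. Cdkn1b rose in all 3 genotypes, while Cdkn1a and Ccnd2 fell. Ccnb2, Mki67, Foxm1 and Cenpf, which act in mitosis, rose as well. In WT cells 5 members were higher and 9 lower (adjusted p under 0.05 in the quasi-likelihood test of edgeR, adjusted by Benjamini-Hochberg over all genes tested), where 33.1% of all genes were called, 17.4% higher and 15.7% lower. In KO cells 11 were higher and 3 lower against 33% of all genes (17.1% higher and 15.9% lower). In KI cells 11 were higher and 5 lower against 33.6% (16.7% higher and 16.9% lower). As shares of 52 the sums of these counts, from the model without pairing, lie under the background in each genotype. Without WT 4, KO 2 and KI 3, the WT cells had 5 higher and 15 lower, against 18.7% and 18.7% of all genes in that fit. As shares of 52, the falls lie over that background and the rises under it. In KI, pairing libraries of the same number gave 27 called members (17 higher), where 39.3% of all genes were called (19.6% higher). As a share of 52 that count lies over the background of its fit. So does the WT count with pairing, given with the processing below. Fitting the 2 groups alone gave 9, against 33.8% of all genes. The comparisons between cultures share libraries with each other.

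Cdkn1b (ENSMUSG00000003031, chr6:134920401-134925513, plus strand, GRCm38) encodes p27, an inhibitor of the cyclin E and cyclin A kinases. Its level in the Th0 WT libraries was 33.4, 37.7, 30.7, 29.1 and 43.7 CPM, and in the Treg WT libraries 146.1, 174, 82.2, 70.4 and 169 CPM. WT 3 and WT 4 were the lowest Treg libraries and still above every Th0 library. In KO the level ranged from 28.2 to 54.8 CPM in Th0 and from 118.6 to 181 in Treg, and in KI from 34.7 to 52.2 and from 126.8 to 144.2. No Treg library overlapped a Th0 library of any genotype. The rise was 1.88 ± 0.22 on the log2 scale (SE) in WT (adjusted p = 7.91e-08), 2.07 ± 0.22 in KO (adjusted p = 1.43e-08) and 1.73 ± 0.24 in KI (adjusted p = 9.25e-07). Per length, it went from 7.67 ± 1.29 to 28.2 ± 10.7 RPKM in WT (SD, n = 5 each).

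Cdkn1a (ENSMUSG00000023067, chr17:29090976-29100727, plus strand) encodes p21, an inhibitor that p53 switches on. Its Th0 WT libraries read 210.4, 146.2, 264, 222 and 190.2 CPM, and its Treg WT libraries 25.5, 18.04, 135.6, 164 and 39.2 CPM. WT 1, 2 and 5 were low in Treg, while WT 3 was just under the Th0 range and WT 4 within it. These were also the Treg WT libraries with least Foxp3 and Cdkn1b. The Treg KO libraries read 34.9, 123.5, 38.02, 120.4 and 56.8 CPM, with KO 2 and KO 4 high, and the Treg KI libraries 39.6, 36.6, 198, 15.5 and 71.1 CPM, with KI 3 high. The log2 change was -1.43 ± 0.47 in WT (adjusted p = 0.0165), -1.64 ± 0.47 in KO (adjusted p = 0.00637) and -1.84 ± 0.49 in KI (adjusted p = 0.00343). Without WT 4, KO 2 and KI 3 it was -1.88, -1.83 and -2.45. The WT call was lost when the 2 groups were fitted alone (adjusted p = 0.0821) and without Treg WT 1, 2 or 5 (adjusted p of 0.0561, 0.0611 and 0.0525).

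**Figure D1:**
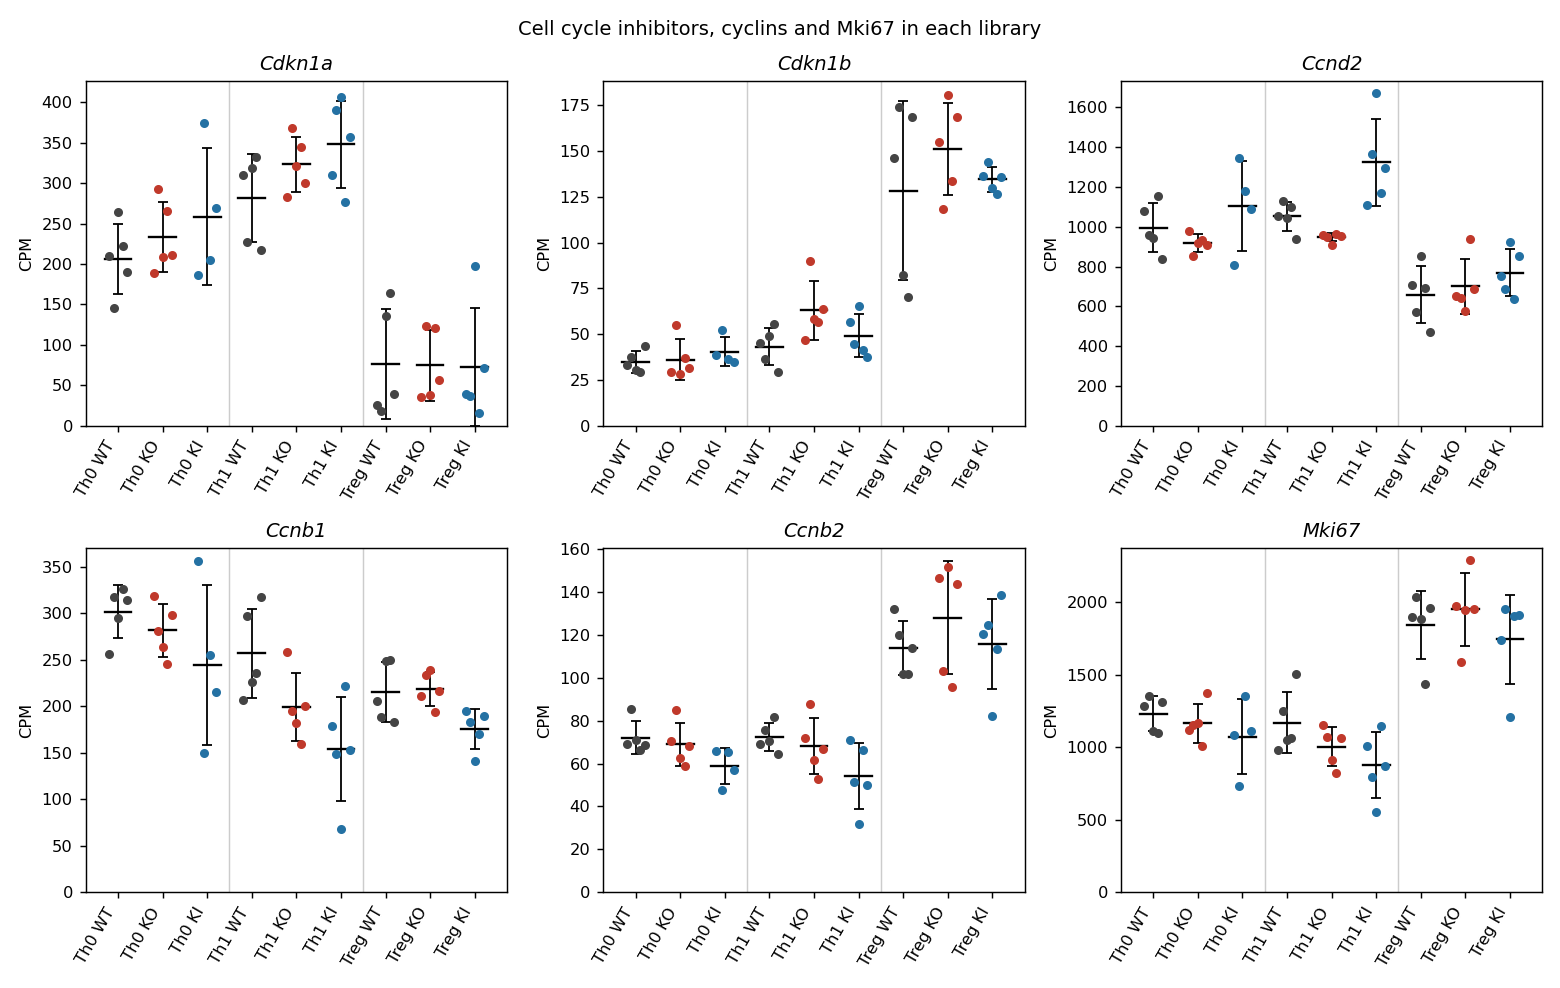
Level in CPM (vertical axes) of Cdkn1a, Cdkn1b, Ccnd2, Ccnb1, Ccnb2 and Mki67 in each library (points), by culture and genotype, with group mean and SD (bars). Every Treg library lies above every Th0 library of its genotype for Cdkn1b and Ccnb2, while Cdkn1a is lower in most Treg libraries, with WT 3, WT 4, KO 2, KO 4 and KI 3 the highest of the Treg groups.

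Of the D cyclins, which start the cycle with Cdk4 and Cdk6, Ccnd2 read 1079, 959, 941, 1156 and 839 CPM in Th0 WT and 705, 571, 851, 691 and 471 CPM in Treg WT. WT 3 alone of the Treg WT libraries reached the Th0 WT range. Its log2 change was -0.60 ± 0.14 in WT (adjusted p = 7.07e-04), -0.39 ± 0.13 in KO (adjusted p = 0.0236) and -0.52 ± 0.14 in KI (adjusted p = 0.00404). Ccnd3 rose in KO by 0.58 ± 0.20 (adjusted p = 0.0227), and its changes of 0.23 in WT and 0.35 in KI were not called.

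Among the mitotic genes, 4 of 21 rose and 2 fell in WT, where 17.4% of all genes rose and 15.7% fell, so the WT count is near the background. In KO 7 rose and 0 fell (all genes 17.1% and 15.9%), and in KI 7 rose and 1 fell (16.7% and 16.9%). Ccnb2 (ENSMUSG00000032218, chr9:70407692-70421547, minus strand), the cyclin B2 gene, read 69.2, 85.4, 70.8, 66.4 and 68.6 CPM in Th0 WT and 131.8, 119.7, 101.8, 101.8 and 113.8 CPM in Treg WT. The Treg libraries lay above the Th0 libraries in each genotype. The log2 rise was 0.66 ± 0.16 in WT (adjusted p = 0.00153), 0.89 ± 0.16 in KO (adjusted p = 4.31e-05) and 0.98 ± 0.17 in KI (adjusted p = 3.59e-05). Mki67 (ENSMUSG00000031004, chr7:135689784-135716361, minus strand) marks cycling cells and read 1287, 1355, 1114, 1098 and 1311 CPM in Th0 WT and 1901, 2035, 1887, 1440.3 and 1959.9 CPM in Treg WT. WT 4 was the lowest Treg WT library and was still above every Th0 WT library. In KI the groups overlapped, with Treg KI 3 at 1210 CPM and Th0 KI libraries at up to 1358 CPM. The log2 rise of Mki67 was 0.58 ± 0.16 in WT (adjusted p = 0.00392), 0.74 ± 0.16 in KO (adjusted p = 3.20e-04) and 0.70 ± 0.17 in KI (adjusted p = 0.00125).

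Foxm1, a transcription factor of mitotic genes, went from 82.96 ± 11.01 CPM in Th0 WT to 121.8 ± 18.7 in Treg WT (SD, n = 5 each). Its log2 rise was 0.55 ± 0.16 in WT, 1.02 ± 0.16 in KO and 0.90 ± 0.17 in KI, with no overlap of libraries in any genotype. Cenpf, a protein of the kinetochore, rose by 0.43 ± 0.15, 0.60 ± 0.15 and 0.61 ± 0.16. Top2a (0.67 ± 0.16) and the spindle kinesin gene Kif11 (0.62 ± 0.16) were called in KO only, and the checkpoint gene Bub1b (0.58 ± 0.17) in KI only. Birc5, which encodes survivin, rose in KO (0.58 ± 0.18) and KI (0.57 ± 0.19). Whether the changes in KO or KI differ from those in WT was tested as a difference of effects, described with the genotypes, and none passed. The changes in KO and KI were not tested against each other.

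The partners Ccnb1 and Cdk1 went the other way from Ccnb2. Ccnb1 (ENSMUSG00000041431, chr13:100778650-100786570, minus strand), the cyclin B1 gene, read 256, 318, 295, 326 and 314 CPM in Th0 WT and 206, 189, 248.8, 250.2 and 183 CPM in Treg WT. Every Treg WT library was below every Th0 WT library. The log2 change was -0.49 ± 0.19 in WT (adjusted p = 0.0443), and the values of -0.36 in KO and -0.47 in KI were not called. Without WT 4, KO 2 and KI 3 the change passed in all 3, at -0.52, -0.41 and -0.59. The WT call was lost without any of Th0 WT 2, 3, 4 or 5 or Treg WT 1, 2 or 5, with adjusted p up to 0.123. Cdk1 (ENSMUSG00000019942, chr10:69335146-69352938, minus strand) ranged from 162 to 201 CPM in Th0 WT and from 95.04 to 164 in Treg WT. It fell in WT (-0.50 ± 0.17, adjusted p = 0.0247) and in KI (-0.47 ± 0.18, adjusted p = 0.0426), and the KO value of -0.20 was not called. Without Th0 KI 1, at 238 CPM, the KI value was -0.25 (adjusted p = 0.359), and the call was also lost without Th0 KI 4 or Treg KI 2, 3, 4 or 5 (adjusted p up to 0.0844).

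Of the 22 S-phase genes, 4 fell and 0 rose in Treg WT, where 15.7% of all genes fell. In this fit of all libraries the count of falls is near the background. In KO 0 fell and 1 rose (all genes 15.9% and 17.1%), and in KI 2 fell and 1 rose (16.9% and 16.7%), both under the background. The median log2 change over the 22 was -0.26 in WT, 0.05 in KO and -0.02 in KI, and over all genes tested 0.02, 0.04 and -0.01. Over the mitotic genes it was 0.06, 0.25 and 0.32. In WT, Mcm10 (-0.65 ± 0.17, adjusted p = 0.00366) and Cdc45 (-0.50 ± 0.12), which help to start the fork, fell, with Mcm3 of the helicase (-0.55 ± 0.15) and Fen1, which trims Okazaki fragments (-0.42 ± 0.16). Mcm10 read 128.5, 166, 130.7, 152 and 151 CPM in Th0 WT and 90.4, 75.96, 108.5, 119.9 and 71.1 CPM in Treg WT. All Treg WT libraries were below all Th0 WT libraries, with WT 3 and WT 4 the nearest to them. Without WT 4, KO 2 and KI 3, 9 S-phase genes were lower in WT, against 18.7% of all genes. As a share of 22 that count lies over the background of its fit. In KI, Cdc45 (-0.63 ± 0.12, adjusted p = 1.11e-04) and Pcna (-0.36 ± 0.12) fell. Lig1, the ligase of Okazaki fragments, rose in KO (0.45 ± 0.14) and KI (0.39 ± 0.15).

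At the step from G1 to S, Ccne1, the cyclin E1 gene, fell in WT (-0.53 ± 0.16, adjusted p = 0.0103) and KO (-0.50 ± 0.16, adjusted p = 0.0155). Its KI value of -0.34 was not called. Its level was 108.3 ± 10.9 CPM in Th0 WT and 74.9 ± 19.5 in Treg WT (SD, n = 5 each). Cdk2, the kinase of cyclin E, rose in KO (0.28 ± 0.09) and KI (0.23 ± 0.09), and E2f8, a repressor of E2F targets, rose in KI (0.68 ± 0.23). E2f1 was called in no genotype, at 31.4 ± 4.58 CPM in Th0 WT and 30.5 ± 8.44 in Treg WT. Mcm2 of the helicase was also called in none, at 207 ± 22.5 and 163 ± 44.5 CPM.

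**Figure D2:**
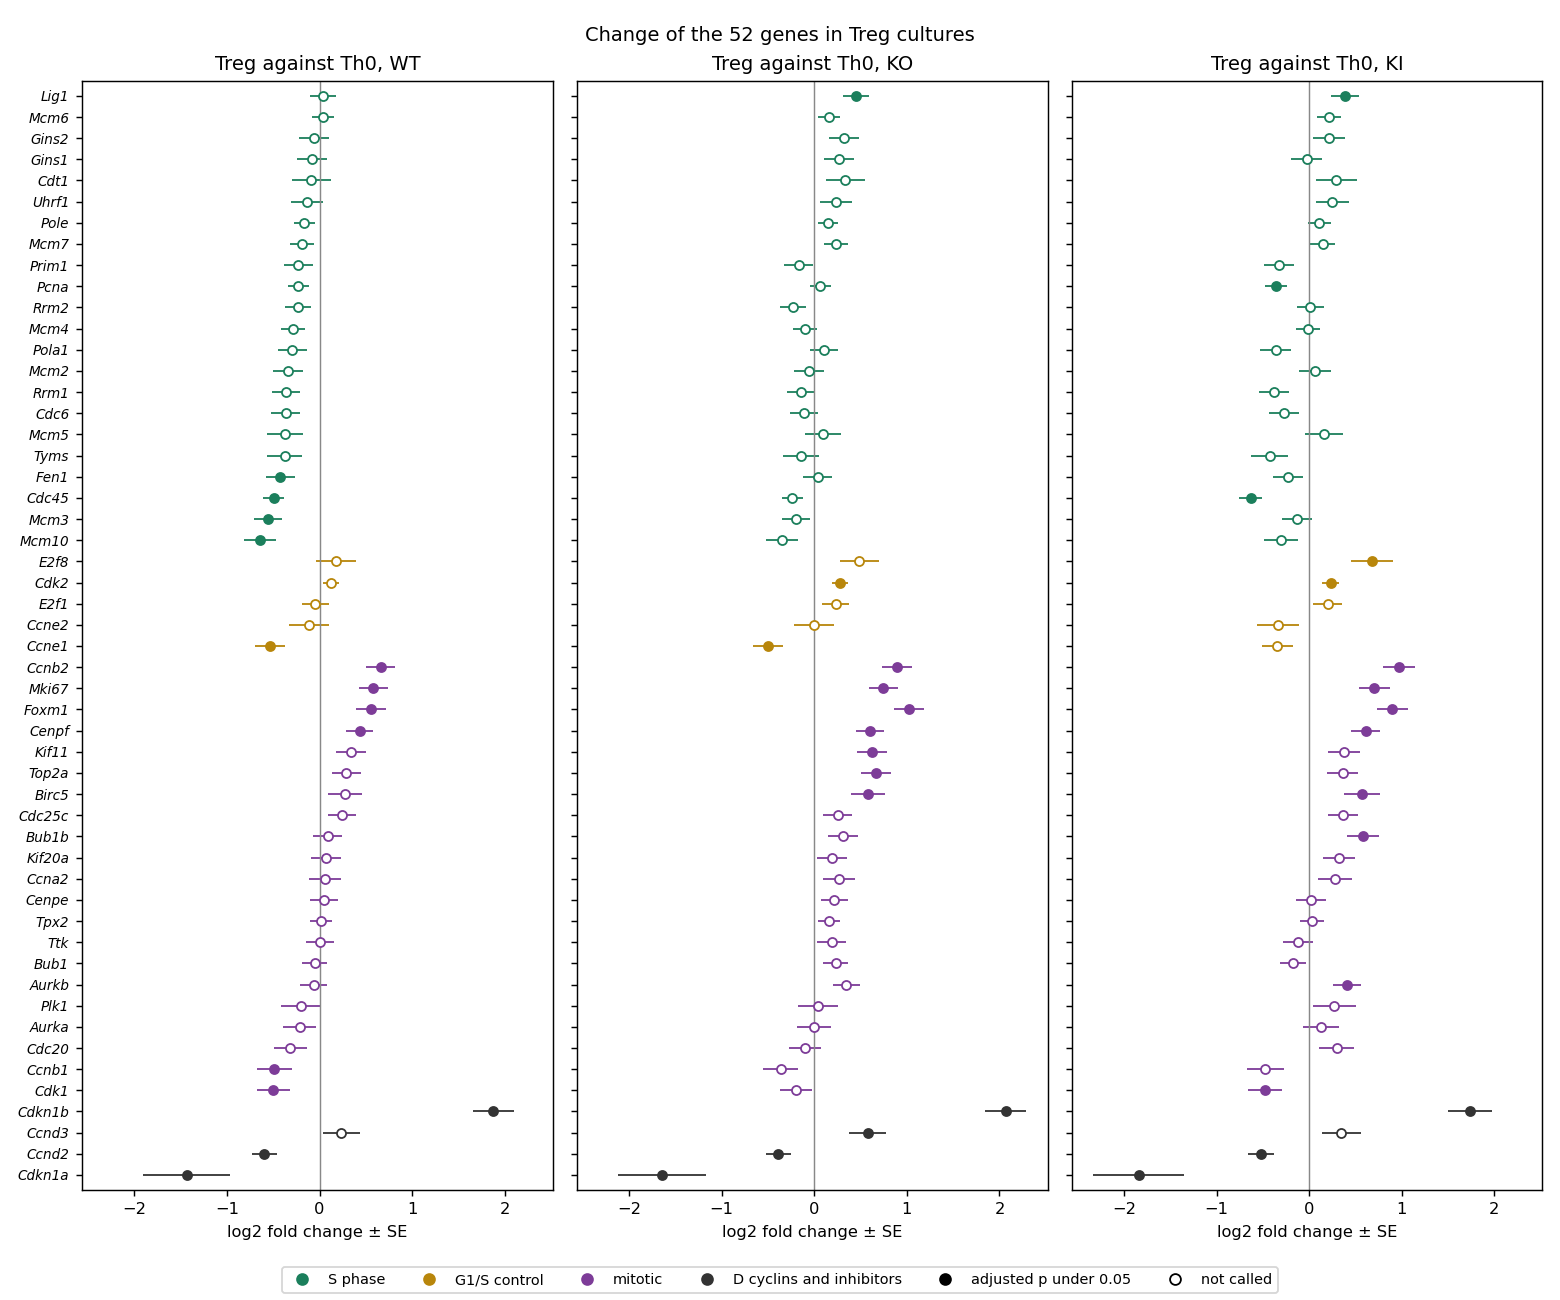
Log2 fold change (horizontal axis; points with SE bars) of the 52 genes in Treg against Th0 cultures in each genotype, coloured by role, with filled points for an adjusted p under 0.05. Cdkn1b has the largest rise and Cdkn1a the largest fall in each genotype, and the mitotic genes range from Ccnb2, Mki67 and Foxm1, which rose, to Ccnb1 and Cdk1, which lie below 0.

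Against Th1 cultures, the share of members higher in Treg was above that of all genes in KO and KI, and near it in WT. No member passed the test of a difference from WT in this effect. In KO 29 members were higher and 2 lower, where 30% of all genes were called and 15% were higher. In KI 26 were higher and 2 lower, against 32.8% called and 17% higher. In WT 9 were higher and 3 lower, against 30.8% and 15.6%. Of the 22 S-phase genes 11 rose in KO, 9 in KI and 2 in WT, and of the 21 mitotic genes 15, 14 and 5. In KO, 24 members had every Treg library above every Th1 library, against 11.2% of all genes, and in KI 11, against 11.9%. The WT count was 7 when the 2 groups were fitted alone, and also 7 without any of Th1 WT 1, 3 or 4 or Treg WT 1 or 5, where 16.7% and 23.9% to 28.7% of all genes were called.

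The members lower in KO and KI were Ccnd2 and Cdkn1a. Cdkn1a changed by -1.88 ± 0.48 in WT, -2.11 ± 0.48 in KO and -2.27 ± 0.48 in KI, with no overlap in any genotype. Cdkn1b rose by 1.57 ± 0.22, 1.26 ± 0.22 and 1.45 ± 0.22. Of the mitotic genes, Ccnb2 rose by 0.66 ± 0.16 in WT, 0.91 ± 0.16 in KO and 1.10 ± 0.16 in KI, and Mki67 by 0.66 ± 0.16, 0.96 ± 0.16 and 0.99 ± 0.16. Kif11 and Foxm1 rose in all 3 as well. Top2a rose in KO (0.79 ± 0.16) and KI (0.77 ± 0.16).

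Of the S-phase genes, Lig1 rose by 0.39 ± 0.14 in WT, 0.81 ± 0.14 in KO and 0.72 ± 0.14 in KI, and Mcm6 by 0.31 ± 0.12, 0.62 ± 0.12 and 0.66 ± 0.12. Mcm6, whose promoter with 3 E2F sites is printed above, read 419.7, 372, 328, 304 and 362 CPM in Th1 KO and 605, 515, 530.2, 549 and 547 CPM in Treg KO. The lowest Treg KO library was above the highest Th1 KO library. Gins1, a subunit of the GINS complex at the fork, rose in KO (0.71 ± 0.16) and KI (0.74 ± 0.16), as did Mcm5 (0.69 ± 0.19 and 0.69 ± 0.19). Cdc45 fell in WT (-0.39 ± 0.12, adjusted p = 0.00869).

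In Th1 against Th0 cultures, the model without pairing called 7 of the 22 S-phase genes lower in KO and 8 in KI. It called no member in WT, where 3.04% of all genes were called (2.22% higher and 0.818% lower). In KO 8 members were lower and 2 higher (against 9.51% of all genes, 4.18% lower and 5.33% higher), the 7 S-phase genes among them. In KI 11 were lower and 0 higher (against 5.92%, 2.94% lower and 2.98% higher), of which 8 were S-phase and 3 mitotic genes. All 22 S-phase genes had a negative estimate in each genotype, with medians of -0.25 in WT, -0.36 in KO and -0.41 in KI. As these genes vary together from library to library, the shared sign is not 22 separate results. The mitotic medians were -0.10, -0.21 and -0.29. In WT, 6 members had an unadjusted p under 0.05 against 14.7% of all genes, and DESeq2 called 0. Libraries of the same number deviated together between Th0 and Th1 in each genotype, as given with the processing below. With libraries paired by number, edgeR called 2 members in WT, 21 in KO and 22 in KI, where 7.15%, 18.2% and 10.9% of all genes were called. Libraries were left out in the model without pairing only. There the S-phase calls in KO went to 0 without Th0 KO 1 and to 1 without Th0 KO 3 or Th1 KO 2, 3 or 4. Those in KI went to 0 without Th0 KI 1. No member passed the test of a difference from WT in this effect.

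In KO, Ccne1 fell by the most, from 127.5, 89.5, 112.8, 106.1 and 113.3 CPM in Th0 to 88.1, 48.5, 69.1, 65.2 and 73.4 CPM in Th1. The groups did not overlap, and the log2 change was -0.67 ± 0.16 (adjusted p = 0.00617). Of the S-phase genes Mcm5 (-0.60 ± 0.19), Mcm10 (-0.59 ± 0.17), the primase gene Prim1 (-0.55 ± 0.15) and Rrm2 (-0.47 ± 0.14) fell. Ccnd3 rose (0.75 ± 0.20, adjusted p = 0.0138), as did Cdkn1b (0.80 ± 0.21, adjusted p = 0.0135). Cdkn1b read 29.1, 54.8, 28.2, 36.8 and 31.5 CPM in Th0 KO and 46.8, 89.9, 58.2, 56.4 and 63.6 CPM in Th1 KO. Each Th1 library was above the Th0 library of its number, with KO 2 highest in both, and the groups overlapped. The KO count was 3 without Th0 KO 1 or Th1 KO 2, and 4 without Th0 KO 3, Th1 KO 3 or Th1 KO 4, where 5.47% to 6.59% of all genes were called.

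In KI the S-phase genes that fell included Gins1 (-0.77 ± 0.17, adjusted p = 0.00430), Prim1 (-0.74 ± 0.16), thymidylate synthase Tyms (-0.66 ± 0.20), polymerase alpha Pola1 (-0.64 ± 0.16), Rrm1 (-0.60 ± 0.16), Cdc45 (-0.47 ± 0.12) and Pcna (-0.41 ± 0.12). Of the mitotic genes Ccnb1 (-0.66 ± 0.20), Cdk1 (-0.63 ± 0.18) and the spindle checkpoint kinase gene Ttk (-0.62 ± 0.16) fell. Ccnb1 read 356, 150.1, 255 and 216 CPM in Th0 KI 1, 3, 4 and 5, and 178, 148.8, 68.3, 222 and 153 CPM in Th1 KI 1 to 5. The groups overlapped, with Th0 KI 1 high and Th1 KI 3 low. No member was called in KI without Th0 KI 1 or when the 2 groups were fitted alone. The count was 2 without Th1 KI 3, 3 without Th1 KI 2, 5 without Th0 KI 4 and 7 without Th1 KI 5. In these fits with a library left out, 1.74% to 4.39% of all genes were called.

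The level of the mitotic genes relative to the S-phase genes differed by culture. As mean log2(CPM + 1), mitotic minus S-phase, it was -0.23 ± 0.03 in Th0 WT, -0.07 ± 0.07 in Th1 WT and 0.12 ± 0.14 in Treg WT (SD, n = 5). In KO it was -0.14 ± 0.18, 0.00 ± 0.13 and 0.13 ± 0.06, and in KI -0.28 ± 0.13 (n = 4), -0.20 ± 0.15 and 0.08 ± 0.09. Of the 15 Treg libraries, WT 4 alone had a negative value (-0.08). Positive values were also found in Th0 KO 2 (0.0815), Th0 KO 5 (0.0107), Th1 KO 2 (0.2053), Th1 KO 5 (0.0257) and Th1 KI 1 (0.0062). The S-phase mean was 7.64 ± 0.11 in Th0 WT, 7.38 ± 0.16 in Th1 WT and 7.36 ± 0.21 in Treg WT, and the mitotic mean 7.40 ± 0.09, 7.31 ± 0.13 and 7.48 ± 0.10. Both were lowest in Th1 KI, at 6.96 ± 0.33 and 6.76 ± 0.45, where KI 3 read 6.43 and 6.04. These means describe the listed genes and carry no test.

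**Figure D3:**
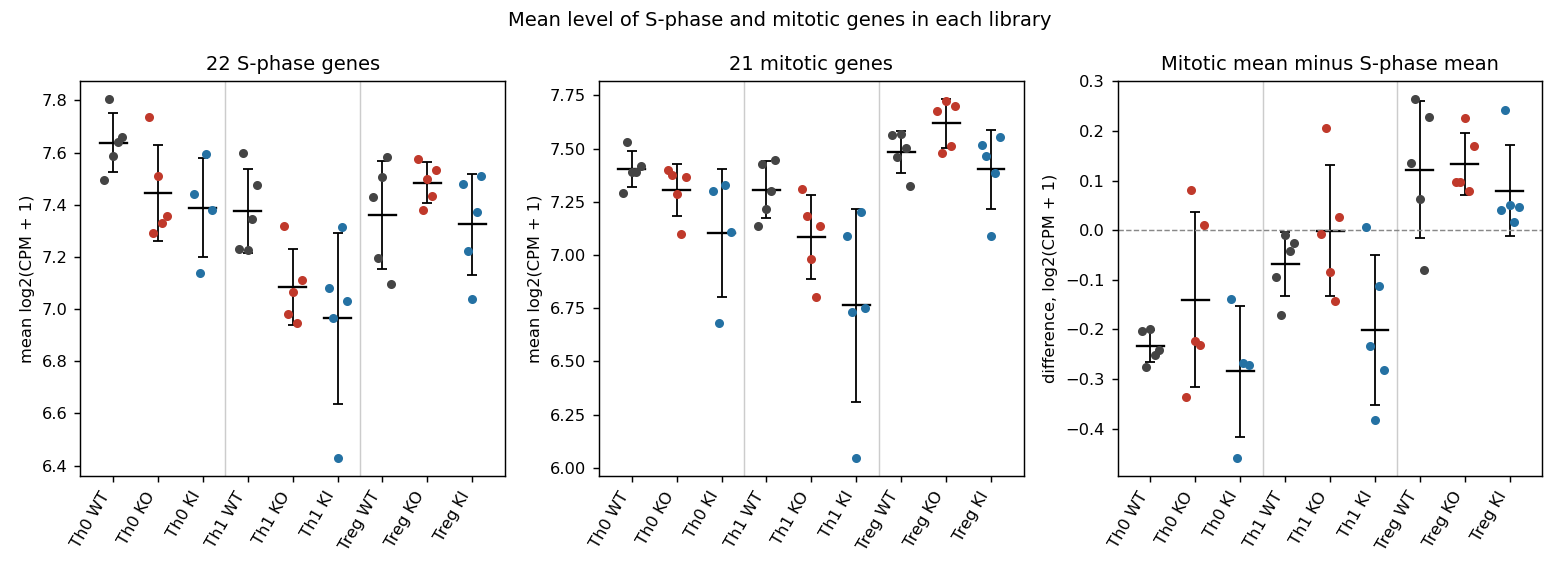
Mean log2(CPM + 1) of the 22 S-phase genes, of the 21 mitotic genes, and the mitotic minus the S-phase mean in each library (points), by culture and genotype, with group mean and SD (bars). The mitotic mean lies below the S-phase mean in all Th0 WT and Th1 WT libraries and above it in 14 of 15 Treg libraries. It also lies above it in Th0 KO 2, Th0 KO 5, Th1 KO 2, Th1 KO 5 and Th1 KI 1. Th1 KI 3 is lowest in both means.

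The genotypes gave no called member in any of the 9 comparisons within a culture. Of all genes, 0% were called for KO against WT in Th0, 0% in Th1 and 0.169% in Treg. KI against WT gave 0.512%, 0.0274% and 0%, and for KI against KO 0%, 0% and 0.0229%. At an unadjusted p under 0.05, the members counted for KO against WT were 1 in Th0, 19 in Th1 and 3 in Treg, beside 4.79%, 9.14% and 10.1% of all genes. For KI against WT they were 16, 40 and 1, beside 16.3%, 15.1% and 8.04%, and for KI against KO 5, 7 and 2, beside 12.3%, 5.93% and 7.78%. DESeq2 called 2 members for KI against WT in Th0 and 16 in Th1, and 4.37% and 3.04% of all genes.

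In Th1, all 22 S-phase and all 21 mitotic genes had a lower estimate in KI than in WT, with medians of -0.42 and -0.51. These genes vary together from library to library, as described below, so the shared sign is not a set of separate results. The medians include KI 3, whose mitotic mean log2(CPM + 1) was 6.04, against 6.73 to 7.20 in the other KI libraries. In Th1 WT this mean ran from 7.14 to 7.45, and KI 4 alone of the KI libraries reached that range. The 4 D cyclins and inhibitors had higher estimates. Ccna2, the cyclin of S and G2 phase, had the largest value (-0.76 ± 0.18), then Ccnb1 (-0.74 ± 0.19) and Birc5 (-0.71 ± 0.18), each with adjusted p = 0.114 and so not called. These genes, as others named below without a call, were chosen after their values were seen. Ccnb1 read 206, 297, 227, 236 and 318 CPM in Th1 WT and 178, 148.8, 68.3, 222 and 153 CPM in Th1 KI. KI 4 was within the WT range and the other KI libraries below it. Mki67 was at 1171 ± 212 CPM in WT and 877 ± 226 in KI (SD, n = 5 each), a log2 change of -0.42 ± 0.16 (95% interval -0.72 to -0.11, adjusted p = 0.195). Mcm5 gave -0.67 ± 0.19 (95% interval -1.05 to -0.29, adjusted p = 0.115).

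DESeq2 called 16 of these members lower, 8 of them S-phase and 8 mitotic genes. Without Th1 KI 4, edgeR called 19 lower, 9 S-phase and 10 mitotic genes, where 1.3% of all genes were called. The summed B cell markers ranged from 85.2 to 691 CPM in Th1 WT and from 151 to 1397 in Th1 KI, with KI 3 highest, and 0 of the 8 markers were called between these groups. Without WT 4, KO 2 and KI 3 the count of called members was also 0. The part of other cells in these estimates was not tested.

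In Th0, the KI estimates were lower than WT for 19 of 22 S-phase and 20 of 21 mitotic genes, with medians of -0.26 and -0.29. Here too the genes vary together, so their signs are not separate results. Mcm5 (-0.64 ± 0.21) and Cdc20, an activator of the anaphase-promoting complex (-0.62 ± 0.19), were the largest, and Rrm2 had the lowest adjusted p (0.0701). Leaving out Th0 KI 4 gave 6 called members and 4.48% of all genes, and leaving out Th0 WT 1 gave 1 and 2.36%. In Treg the KI medians were -0.04 and -0.09. For KO against WT the S-phase and mitotic medians were -0.19 and -0.10 in Th0, -0.31 and -0.22 in Th1, and 0.14 and 0.13 in Treg. Cdkn1b in Th1 was at 43.1 ± 10.2 CPM in WT and 62.98 ± 16.2 in KO (log2 change 0.55, 95% interval 0.13 to 0.97, adjusted p = 0.507). Ccnd2 in Th1 was at 1053 ± 73.2 CPM in WT, 947 ± 20.8 in KO and 1323 ± 219.7 in KI, with a KI against WT value of 0.33 (95% interval 0.07 to 0.59, adjusted p = 0.231).

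**Figure D4:**
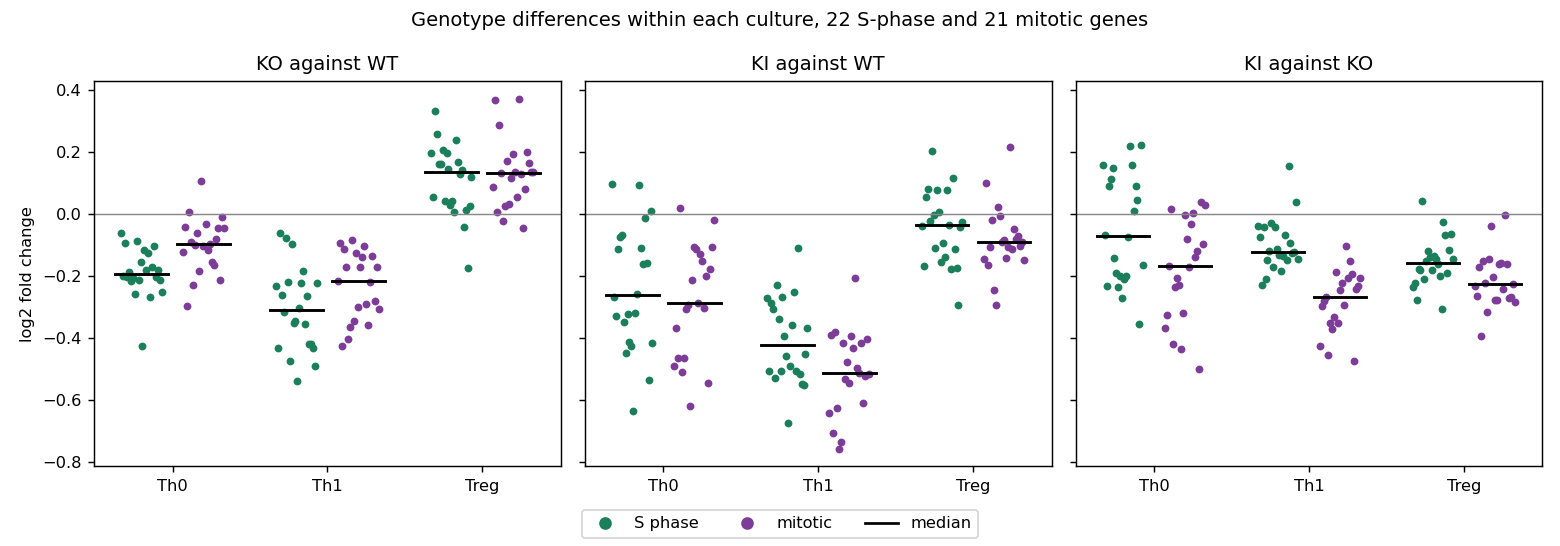
Log2 fold change between genotypes within each culture for the 22 S-phase and 21 mitotic genes (points; bars are medians). The KI against WT values in Th1 lie lowest, with medians of -0.42 and -0.51, those of KO against WT in Treg lie mostly above 0, and no gene was called.

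Whether the effect of the genotype depends on the culture was tested as a difference of effects, and no member passed in any of the 6 tests. The KO or KI effect in Treg minus that in Th1, a comparison added after the others had been seen, was positive for all 22 S-phase and all 21 mitotic genes. Its KO medians were 0.43 and 0.38, and its KI medians 0.35 and 0.44. As the genes vary together, the shared sign is not a set of separate results. An unadjusted p under 0.05 was reached by 17 members for KO, against 6.41% of all genes, and by 9 for KI, against 3.31%. The largest value for KO was Mcm5 (0.58 ± 0.27, adjusted p = 0.744), and for KI Bub1b (0.61 ± 0.22, adjusted p = 1). The larger counts in KO and KI in Treg against Th1 are thus not shown to differ from WT. The difference between Treg and Th0 gave 4 members at an unadjusted p under 0.05 for KO (against 5.25% of all genes) and 3 for KI (6.22%). That between Th1 and Th0 gave 0 (1.76%) and 5 (3.26%). Of all genes, the adjusted test called 0%, 0% and 0% in these KO tests (Treg with Th0, Th1 with Th0, Treg with Th1) and 0%, 0% and 0% in those of KI.

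Within groups, the S-phase and the mitotic genes varied together from library to library. Over the deviations of the 44 libraries from their group means, the median correlation was 0.64 over 231 pairs of S-phase genes, 0.73 over 210 pairs of mitotic genes and 0.58 over 462 mixed pairs. With WT 4, KO 2 and KI 3 left out (35 libraries) these were 0.58, 0.65 and 0.49. The genes of a pair share libraries, depth and scaling, so these values are descriptions. Kif20a, a kinesin of cell division, had a median of 0.82 with the mitotic genes, and Ccna2 and Cenpf 0.80. Ccnd2 (-0.40), Cdkn1a (-0.29), Ccnd3 (-0.19) and Cdkn1b (-0.18) lay on the other side of 0. E2f1 had 0.08 with the mitotic and 0.30 with the S-phase genes.

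Other genes of these processes, from lists without the 52, gave the following in Treg against Th0, beside the same 33.1%, 33% and 33.6% of all genes called. Of 35 other replication genes 0 rose and 16 fell in WT, 4 rose and 9 fell in KO, and 4 rose and 11 fell in KI. The origin recognition genes Orc1 and Orc2 fell in all 3. Orc2 changed by -1.06 ± 0.18, -1.12 ± 0.18 and -1.15 ± 0.19, with no overlap in any genotype. The histone chaperone gene Nasp changed by -0.65 ± 0.16, -0.64 ± 0.16 and -0.87 ± 0.17, and another, Asf1b, rose in KO (0.66 ± 0.17) and KI (0.81 ± 0.18).

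Of 35 other mitotic genes 6 rose and 0 fell in WT, 18 rose and 1 fell in KO, and 13 rose and 2 fell in KI. Cdc25b, a phosphatase that activates Cdk1, rose by 0.87 ± 0.21, 1.48 ± 0.21 and 1.28 ± 0.23, with no overlap in any genotype. Nusap1, which binds spindle microtubules, rose in WT (0.71 ± 0.13) and KO (1.07 ± 0.13), and Hjurp, a chaperone of the centromere histone, rose by 0.40 ± 0.13, 0.73 ± 0.13 and 0.76 ± 0.14. Racgap1, which acts in cytokinesis, rose by 0.59 ± 0.14, 0.61 ± 0.14 and 0.87 ± 0.15. The securin gene Pttg1 fell in KO (-0.86 ± 0.23) and KI (-1.36 ± 0.25).

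Of 23 other G1 regulators measured, 8 rose and 7 fell in WT, 8 rose and 5 fell in KO, and 6 rose and 3 fell in KI. Ccng2, which encodes cyclin G2, rose by 1.99 ± 0.26, 1.92 ± 0.26 and 1.57 ± 0.28. E2f2 rose by 1.12 ± 0.19, 1.48 ± 0.19 and 1.38 ± 0.20. Cdkn2c, an inhibitor of Cdk4 and Cdk6, rose in all 3 (0.93 ± 0.23, 1.22 ± 0.23 and 0.99 ± 0.24). The phosphatase gene Cdc25a changed by -0.77 ± 0.17, -0.72 ± 0.17 and -0.55 ± 0.17, and the E2F partner gene Tfdp1 by -0.65 ± 0.12, -0.53 ± 0.12 and -0.45 ± 0.13. Cdkn2a, the locus of p16 and p19ARF, had 0 counts in all 5 Treg WT libraries against 167 over the Th0 WT group, and was at least 51.6-fold lower against a floor of 3 counts over the group. It had 147 counts over Th0 KO and 14 over Treg KO, and 74 over Th0 KI and 16 over Treg KI.

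Of 22 genes of p53 and the DNA damage checkpoint, 4 rose and 10 fell in WT, 5 rose and 9 fell in KO, and 4 rose and 11 fell in KI. The receptor gene Eda2r changed by -3.70 ± 0.43, -3.23 ± 0.42 and -3.01 ± 0.43, and the kinase gene Plk2 by -3.01 ± 0.31, -3.08 ± 0.31 and -2.92 ± 0.32. Phlda3 changed by -1.97 ± 0.32, -1.73 ± 0.32 and -1.57 ± 0.33. Trp53inp1 rose by 2.24 ± 0.30, 2.36 ± 0.30 and 1.42 ± 0.31, and Btg2, which restrains division, by 1.43 ± 0.29, 0.95 ± 0.29 and 1.51 ± 0.32.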

How the data were processed

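RNA of 44 cultures was made into libraries with a stranded mRNA kit and read in pairs, per the labels' protocols. The authors deposited raw counts per gene for each library and lane. The 2 lanes of a library were summed, and 1492 genes without a symbol entered the filter on low counts like the others. Column names show STAR alignments, per the file headers. The tool and strand setting used for counting were not given in the sources used here, and the submitters' processing notes name build GRCh38 although the gene IDs are mouse. A deposited normalised table was not used, and tests rest on the raw counts.

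The counts were tested with edgeR 4.0.16 (TMM factors, filterByExpr, quasi-likelihood test) in R 4.3.3, in 1 model of the 9 group means, with p-values adjusted over 21873 genes and a threshold of 0.05. Unless another fit is named, values of single genes come from this model, which does not pair libraries. The model was also run on counts simulated without a link between libraries of the same number. That run cannot show how well a model without pairing suits these libraries. The alternatives were DESeq2 1.42.0, RLE factors, no filter, the compared groups alone, a replicate block, and leaving out WT 4, KO 2 and KI 3 of each culture or each library in turn. Over 86 pairs of libraries of a group, none agreed within sampling noise (lowest median chi-square 4.362, against 0.455 for copies). Libraries of the same number deviated together between Th0 and Th1 (lowest correlation 0.245 in WT, 0.185 in KO and 0.147 in KI) and between Th0 and Treg in KO (0.107) and KI (0.1003). The lowest correlation was under 0.1 in the other culture pairs and between genotypes. In those culture pairs 4 of 5 (Th0 with Treg, WT) or 5 of 5 libraries (Th1 with Treg) still correlated best with their own number. What these numbers stand for is not in the labels. Gene positions and exon lengths are from the GENCODE annotation of GRCm38, and promoter sequences from RefSeq. Intervals on shares are Wilson 95% intervals.

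The members and lists were chosen with earlier results of these data known. Named genes were Mki67, Top2a, Ccnb1, Pcna, Mcm2, E2f1, Ccnd2, Ccnd3, Cdkn1a and Cdkn1b, then in each comparison the called members with the largest changes, up to 6 S-phase or G1/S and 6 mitotic genes each way, and up to 3 each way of each other list. Genes shown for their promoters or correlations were chosen after their values were seen.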

Additional observations from a re-analysis of the deposited data

Results flagged for a closer look

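In 10 checks of a gene or mean within a group of 4 or 5 libraries, 8.55% of the checks made, 1 library stood far from the others, and chance gives this in about 1 of 20 checks. Pcna was high in Th0 KI 1 (759.9 CPM, the others 493.3 to 526.6) and in Th1 WT 5 (636 CPM, the others 478.9 to 503.4). Mki67 was low in Treg WT 4 (1440 CPM, the others 1887 to 2035) and Treg KI 3 (1210 CPM, the others 1743 to 1954). Top2a was low in Treg KO 2 (1363 CPM, the others 1745 to 1890) and Treg KI 3 (1004 CPM, the others 1444 to 1597). These 4 Treg values belong to the libraries with the lowest Foxp3 of their groups. Ccnd3 was high in Treg KO 5 (229.6 CPM, the others 174.7 to 188.3). Ccnd2 was low in Th1 KO 3 (910.6 CPM, the others 948.7 to 962.5), and E2f1 in Th1 KI 3 (24.86 CPM, the others 30.11 to 32.11). The mitotic minus S-phase mean was high in Treg KI 2 (0.2426 on the log2 scale, the others 0.0157 to 0.0517).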

How the results depend on the processing

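The counts of called members were within 1.5 times the main count in all 24 comparisons under RLE factors, and also with WT 4, KO 2 and KI 3 left out. That limit was set on the sum over all members. With these libraries left out, more S-phase genes fell in Treg against Th0 WT, as given above. Fitting the compared groups alone gave 7 in Treg against Th1 WT (16.7% of all genes), 22 in Th1 against Th0 KO (20.2%), 0 in Th1 against Th0 KI (5.01%) and 9 in Treg against Th0 KI (33.8%). No filter on low counts gave 6 in Th1 against Th0 KO (4.16%) and 6 in KI (2.32%). With the replicate block, the counts were 2, 21 and 22 in Th1 against Th0 (WT, KO, KI). They were 27 in Treg against Th0 KI and 24 in Treg against Th0 WT (40.4%). Between Th0 and Treg in WT, libraries of the same number had a lowest correlation of 0.0919. Their mean was 0.2215, against -0.0551 for other numbers, and 4 of 5 libraries correlated best with their own number. DESeq2 called 2 members for KI against WT in Th0 and 16 in Th1. The causes were not tested.

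Leaving out 1 library gave 0 to 1, 3 to 12 and 0 to 15 members in Th1 against Th0 (WT, KO, KI), 9 to 16, 11 to 15 and 10 to 17 in Treg against Th0, and 7 to 14, 22 to 30 and 23 to 30 in Treg against Th1. For KI against WT it gave 0 to 6 in Th0 and 0 to 19 in Th1, and 0 in the other comparisons of genotypes and of effects. Beside the libraries named with the results, the count was 9 in Treg against Th0 WT without Treg WT 2 or 5, 10 in KI without Th0 KI 1 or Treg KI 5, and 1 in Th1 against Th0 WT without Th1 WT 5. Of the values of named genes with 1 library left out, 3437 kept their side of the threshold, 166 lost and 9 gained a call, and 0 reversed.

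In the bases before the start site alone, E2F sites stood in 2% of all promoters, CHR elements in 17.1% of all and 46.7% of mitotic promoters, CCAAT boxes in 33.8% of all and at least 2 of them in 10.1%, since fewer bases were searched.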
